A study of Mus musculus with 16 samples.

Results

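The ligands of the epidermal growth factor (EGF) receptor and the receptors of the ERBB family were examined in the stomach corpus of mice. The genes were taken by symbol: 6 ligands (Egf, Tgfa, Areg, Ereg, Hbegf and Btc) and 3 receptors (Egfr, Erbb2 and Erbb3), 9 of the 24964 genes in the count table. All 9 passed the filter on low counts, which left 15385 genes for testing. Their raw counts ranged from 61 for Ereg in its lowest library to 4688 for Erbb3 in its highest.

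RNA came from 4 mm biopsies of the lesser curvature of the corpus in female mice aged 8 weeks, and was measured by sequencing in 16 libraries. There were 4 libraries in each of 4 groups. WT-S and WT-A were wild-type C57BL/6 mice, and TTP-S and TTP-A were congenic C57BL/6 mice of the genotype TTPΔARE. The treatment label of the A groups is gastric inflammation induced by adrenalectomy, the removal of the adrenal glands. That of the S groups names only spasmolytic polypeptide-expressing metaplasia (SPEM), and the labels do not say what the letter S stands for, whether S mice had an operation, or how long after surgery tissue was taken. S is therefore used only as a group name. Tristetraprolin (TTP), the product of Zfp36, is a protein that speeds the decay of messenger RNAs with AU-rich elements, and the TTPΔARE allele lacks such an element in the Zfp36 transcript itself. The labels do not say whether the mice were homozygous or whether the WT mice were littermates, nor whether each library came from a different mouse, so p-values measure the spread between libraries.

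Library totals ranged from 17453930 to 25849472 counts. Zfp36 was at 62.0 ± 4.73 CPM (reads of a gene relative to the scaled size of its library) in WT-S, 72.0 ± 11.9 CPM for WT-A, 122 ± 6.11 CPM for TTP-S and 123 ± 9.54 CPM for TTP-A (SD, n = 4 each), so the genotype labels and the targeted gene pointed the same way. Markers of the corpus were abundant, with summed levels of 14204 to 21475 CPM for 5 parietal cell genes and 47118 to 149616 CPM for the 3 chief cell genes in the table. WT-A 3 and WT-A 4 stood apart from the other 14 libraries: their deviation from the gene medians rose with the GC content of the transcript (Spearman rho across 11493 genes 0.716 and 0.738, against at most 0.302 in absolute value elsewhere). Genes are not independent replicates, so no p is attached. The log2 differences of the 9 genes that involve WT-A are given with and without this pair. Without it, WT-A has 2 libraries.

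The EGF ligands are made as membrane-anchored precursors and released by proteases of the ADAM family. EGF, transforming growth factor alpha, amphiregulin, epiregulin, heparin-binding EGF-like growth factor and betacellulin all bind the EGF receptor, which then pairs with itself or with ERBB2 or ERBB3 and signals through RAS, MAP kinases and PI3 kinase. In the corpus, transforming growth factor alpha is known to restrain acid secretion and to favour surface mucous cells over other gland lineages.

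Because TTP binds AU-rich elements, the 3′ untranslated region (UTR) of 1 coding transcript per gene was searched on its own strand for TATTTAT, the core of a TTP site, and for the shorter ATTTA, which TATTTAT contains. TATTTAT was found in 6 of the 9 genes and in 29.3% of the 14512 tested genes with such a transcript. ATTTA was found in 8 of the 9 and in 68.5% of those genes. A longer UTR has more room for a match, and these shares were not matched for length. The UTRs of Egfr (6303 bases), Tgfa, Ereg, Btc, Erbb3 and Hbegf were longer than the median of 1127 bases. Those of Areg, Egf and Erbb2 were shorter. The shares therefore do not show an excess of sites in the 9 genes. Tgfa and Hbegf each held 2 copies of TATTTAT, Ereg held 3, and Areg, Egfr and Erbb3 held 1. None was found in Egf, Btc or Erbb2. Erbb2 also lacked ATTTA. The sites of the ligands and receptors are shown with their flanks so that the matched letters can be read in context, with TATTTAT in capitals. The 8 sites outside Hbegf are printed. They lie in the last exon of their transcript, in coordinates of GENCODE M21 on GRCm38, the build named mm10 in the submitters' notes. A match describes the letters and does not show binding.
Areg, chr5:91148382-91148410, plus strand: tatttaagtgtTATTTATtttatagctca
Ereg, chr5:91090207-91090235, plus strand: catgttaataaTATTTATgttgggtcatc
Ereg, chr5:91090911-91090939, plus strand: ccattttagagTATTTATttttataggga
Ereg, chr5:91093576-91093604, plus strand: ttgtcagttttTATTTATtttttgttagg
Tgfa, chr6:86272434-86272462, plus strand: gatgcgtgtctTATTTATtagatggataa
Tgfa, chr6:86272925-86272953, plus strand: tttgcctttccTATTTATtttcaagcatt
Egfr, chr11:16916288-16916316, plus strand: agttacaataaTATTTATgtttgtttggg
Erbb3, chr10:128568185-128568213, minus strand: actgtaaggatTATTTATttcaggaactt

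The UTR of Areg was the shortest that held a site, at 253 bases against a median of 1127 over the genes searched, and its site began at base 214 after the stop codon. In Ereg the UTR was 3501 bases and the first site began at base 73. Areg, Ereg and Btc lie close together on chromosome 5, with Areg at 91139599 to 91148432 and Ereg at 91074622 to 91093646 on the plus strand, and Btc at 91357261 to 91402994 on the minus strand.

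Levels of different genes were compared as CPM per kilobase of transcript (CPM per kb). The length was that of the longest coding transcript, from 1215 bases for Areg to 10208 for Egfr. The order and the shares below depend on this choice. In CPM, the median of Egfr was 47.6, against 46.4 for Tgfa and 23.7 for Areg. Erbb3, Erbb2 and Areg held the 3 highest levels in all 16 libraries, with medians of 24.6, 20.7 and 19.5 CPM per kb. Tgfa followed at 10.2, Hbegf at 8.23, Btc at 7.65, Egf at 5.62 and Egfr at 4.66 CPM per kb. Ereg was lowest in every library, with a median of 1.13 CPM per kb. Neighbours in the middle of the order changed places between libraries. Areg stood above Erbb3 for WT-A 1 and in 3 of the 4 WT-S libraries (1, 2 and 4), and in none of the 8 TTPΔARE libraries.

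The 6 ligands summed to 58.4 ± 4.56 CPM per kb for WT-S, 52.8 ± 8.62 for WT-A, 46.6 ± 5.57 for TTP-S and 50.6 ± 3.596 for TTP-A (SD, n = 4). The WT-S sums (52.5 to 63.6) lay just above those of TTP-S (40.6 to 52.1), and all other pairs of groups overlapped. Areg took 43.4% ± 1.85 of the ligand sum in WT-S and 42.2% ± 3.41 for WT-A, against 34.5% ± 4.09 for TTP-S and 31.0% ± 4.68 for TTP-A. Within S and within A, no TTPΔARE library reached the Areg share of any WT library. Egf took 8.85% ± 2.35 and 6.19% ± 1.93 for WT-S and WT-A, and 13.5% ± 1.63 and 12.3% ± 1.63 for TTP-S and TTP-A, without overlap between genotypes within a condition. Shares of the same sum are tied, so a lower share of Areg raises the others, and these are not separate results. In CPM, Egf overlapped between TTP-S (26.7 to 33.1) and WT-S (15.1 to 30.4). The share of Tgfa stayed between 18.7% and 21.2% in the 4 group means. The 3 receptors summed to between 46.1 CPM per kb for TTP-A and 55.5 CPM per kb for WT-A, with group means of 47.7% to 50.5% from Erbb3, 40.1% to 42.1% from Erbb2 and 8.16% to 10.2% from Egfr.

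**Figure D1:**
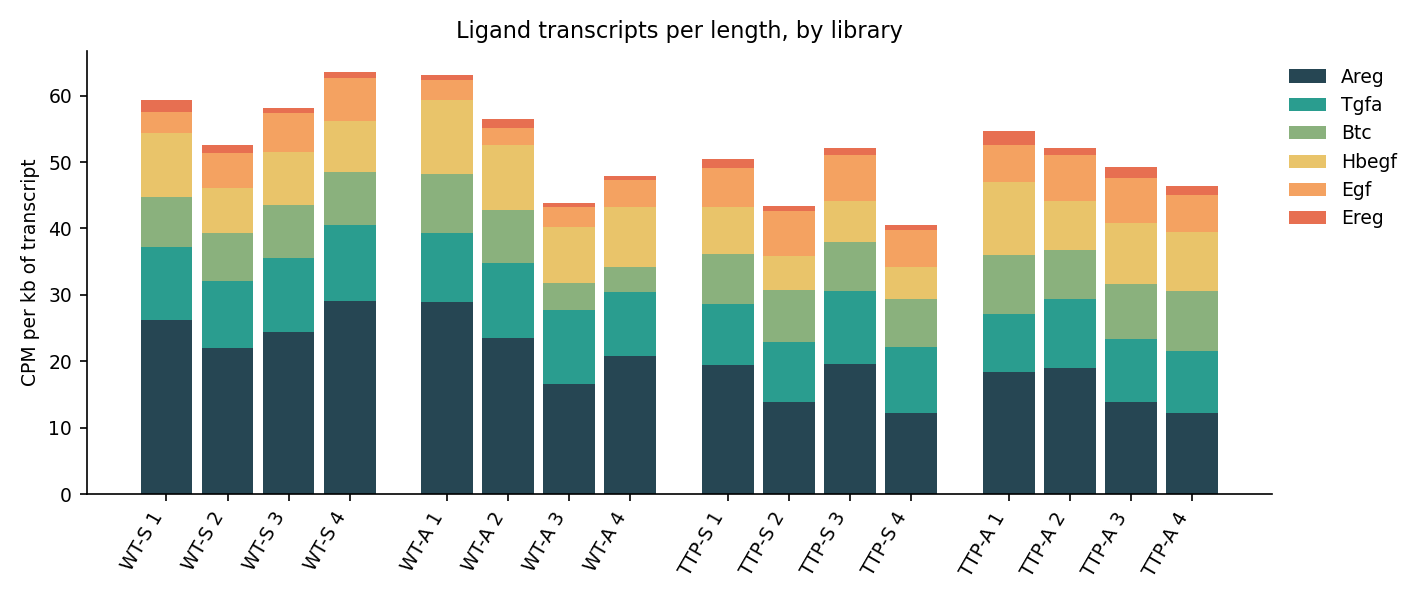
Stacked bars of the 6 ligands in CPM per kb of transcript for each of the 16 libraries, set out by group. Areg is the largest layer in every library, at a mean of 43.4% of the sum in WT-S and 31.0% for TTP-A, and Ereg is the thinnest.

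Each gene was tested with edgeR in 4 pairwise contrasts and in the interaction, which asks whether the difference between A and S differs between genotypes. A gene is called here when its p, adjusted over all 15385 genes, is under 0.05. Between WT-A and WT-S, 18.8% of all genes were called, and of the 9 genes Egf was called lower and Erbb2 higher in WT-A. Between TTP-A and TTP-S, 2.9% of all genes were called, and of the 9 only Hbegf, higher in TTP-A. Between TTP-S and WT-S, 0.0325% of all genes were called (5 genes, and 1153 at an unadjusted p under 0.05), and none of the 9. Areg and Hbegf had an unadjusted p under 0.05 there. DESeq2 called none of the 9, with 98 genes called in all, and limma voom called Areg, among 175. Between TTP-A and WT-A, 5.17% of all genes were called, and of the 9 Egf was called higher and Erbb2 and Erbb3 lower in TTP-A.

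No member was called in the interaction, where 0.0585% of all genes were (9 genes, and 2344 at an unadjusted p under 0.05). Egf, Ereg, Erbb2 and Erbb3 had an unadjusted p under 0.05. DESeq2 called Erbb3, among 268 genes in all, and limma voom called Egf, among 171. The contrasts share groups, so their results are given side by side and not as support for each other. The median log2 difference of the 9 genes was -0.04 between WT-A and WT-S, -0.04 between TTP-A and TTP-S, -0.05 between TTP-S and WT-S and -0.07 between TTP-A and WT-A. Over all genes tested these medians lay between -0.0033 and 0.0094. In the 14 libraries the called genes were Egf in both contrasts of WT-A and Hbegf between TTP-A and TTP-S, with 10.4%, 1.87% and 6.26% of all genes called in WT-A against WT-S, TTP-A against WT-A and TTP-A against TTP-S.

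**Figure D2:**
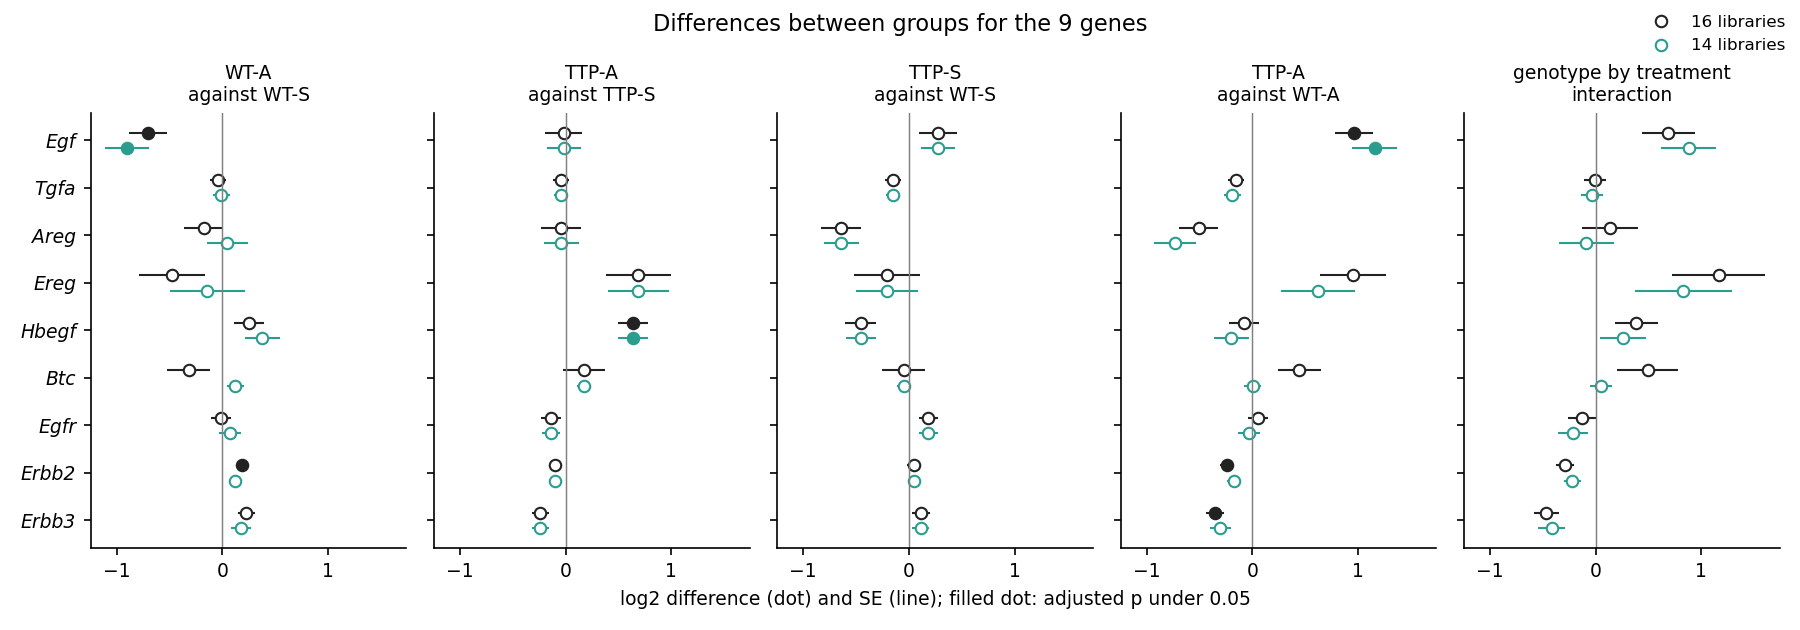
Log2 differences (dots) with SE (lines) of the 9 genes in the 4 pairwise contrasts and the interaction, in 16 libraries (black) and in the 14 without WT-A 3 and 4 (green), with filled dots for an adjusted p under 0.05. Egf is filled in both fits where WT-A is compared with WT-S or TTP-A, Hbegf where TTP-A is compared with TTP-S, and Erbb2 and Erbb3 only in 16 libraries.

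Egf, which encodes the founding ligand of the family, had its lowest levels in WT-A. Its levels in libraries 1 to 4 were 15.1, 25.02, 27.7 and 30.4 CPM for WT-S, 14.3, 12.1, 14.4 and 19.6 CPM for WT-A, 27.6, 31.9, 33.1 and 26.7 CPM for TTP-S, and 26.1, 32.7, 32.1 and 26.9 CPM for TTP-A. All 4 WT-A libraries lay below all 8 TTPΔARE libraries, and WT-S overlapped WT-A through its first library only. Between TTP-A and WT-A, 12.2% of all genes did not overlap. WT-A was lower than WT-S by a log2 of -0.71 (SE 0.18, edgeR adjusted p = 0.0165, exact two-sided permutation p = 0.0571). Without WT-S 4 the edgeR adjusted p was 0.0581, and it stayed under 0.05 in the 7 other fits that left out 1 library. TTP-A exceeded WT-A by a log2 of 0.97 (SE 0.18, edgeR adjusted p = 0.0137), with an exact permutation p of 0.0286, the smallest that 4 against 4 libraries allow. That call was lost without TTP-A 3 or without WT-A 3, with an edgeR adjusted p of at most 0.0511. Fits of only the 2 groups compared lost both calls (edgeR adjusted p = 0.0897 for WT-A against WT-S and 0.0535 for TTP-A against WT-A).

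In the 14 libraries the log2 differences of Egf were -0.90 from WT-S to WT-A (edgeR adjusted p = 0.0160) and 1.16 from WT-A to TTP-A (adjusted p = 0.0174), larger than in 16. TTP-A differed from TTP-S by a log2 of -0.02 (edgeR adjusted p = 0.982), and TTP-S from WT-S by 0.28 (adjusted p = 0.826). Leaving out 1 library moved the latter to between 0.11 and 0.39. The interaction was 0.69 (SE 0.25, edgeR adjusted p = 0.239; 0.88 and 0.178 in the 14 libraries), so a different response to A in the 2 genotypes did not pass the threshold. Averaged over A and S, a contrast added after the data were seen, Egf was higher in TTPΔARE by a log2 of 0.62 (edgeR adjusted p = 0.0353; 0.72 and 0.0186 in the 14 libraries), where 0.864% of all genes were called. That call was lost in 9 of 16 fits without 1 library (TTP-A 2, 3 or 4, any TTP-S library, WT-A 3 or WT-S 3), with an adjusted p of at most 0.0815.

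Markers of chief cells, the zymogen-secreting cells at the gland base, moved with Egf between the means of WT-S, WT-A and TTP-A. The 3 chief genes measured summed to 75402 to 149616 CPM for WT-S, 47118 to 100387 CPM for WT-A, 123786 to 131172 CPM for TTP-S and 91234 to 140031 CPM for TTP-A. None of the 3 was at 0, 2 were called lower in WT-A than WT-S, and 2 were called higher in TTP-A than WT-A. Between TTP-A and TTP-S, where Egf was not called, 1 of the 3 was called higher and the others had lower values. WT-S 1, lowest in its group for Egf, was also lowest for these genes, and WT-A 4 was highest in its group for both. Over WT-S 2, 3 and 4 the orders were opposite. Egf was at 25.02, 27.7 and 30.4 CPM there, and the chief sum at 149616, 127000 and 122444 CPM. Parietal cell markers shifted in the same directions: 3 of 5 were called lower in WT-A than WT-S (4 in the 14 libraries) and 1 higher in TTP-A than WT-A. Fewer cells of a type and less RNA per cell cannot be told apart in such bulk samples, and the part of cell makeup in the Egf result was not tested. Egf spans 129677565 to 129755316 on the minus strand of chromosome 3 in 24 exons, some of which overlap exons of 6330410L21Rik and Gm42697. Whether the counting used strand is not given in the sources used here, so reads of overlapping genes could have been counted for Egf.

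Hbegf, which encodes heparin-binding EGF-like growth factor, a ligand induced early in wounded epithelia, had a higher mean in A than in S in both genotypes, a difference that passed the test in TTPΔARE mice. Its levels in libraries 1 to 4 were 23.1, 16.03, 19.01 and 18.3 CPM for WT-S, 26.3, 23.2, 20.1 and 21.3 CPM for WT-A, 17.01, 12.4, 14.6 and 11.5 CPM for TTP-S, and 26.1, 17.4, 21.9 and 20.9 CPM for TTP-A. Every TTP-A library lay above every TTP-S library, the only non-overlap among the 9 genes in that contrast, as held for 13.7% of all genes. TTP-A was above TTP-S by a log2 of 0.64 (SE 0.14, edgeR adjusted p = 0.0294, exact permutation p = 0.0286). The 14 libraries gave 0.64 (edgeR adjusted p = 0.0189). In 16 libraries the call was held only without TTP-A 2 or without TTP-S 1. It was lost without TTP-A 1, 3 or 4 or TTP-S 2, 3 or 4, with an adjusted p of up to 0.127 without TTP-A 1.

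In WT mice the log2 difference of Hbegf between A and S was 0.25 (SE 0.14, edgeR adjusted p = 0.205; 0.38 and 0.157 in the 14 libraries), and the interaction was 0.38 (adjusted p = 0.367; 0.26 and 0.664). Averaged over both genotypes, again a contrast added after the data were seen, Hbegf was higher in A by 0.45 (SE 0.10, edgeR adjusted p = 0.0074). It was called in all 16 fits that left out 1 library and in the 14 libraries (0.51, adjusted p = 0.0056), and 18.9% of all genes (19.5% in 14 libraries) were called in that contrast. TTP-S was lower than WT-S by a log2 of -0.46 (SE 0.15, edgeR adjusted p = 0.397, exact permutation p = 0.0571), with overlapping libraries. TTP-A differed from WT-A by -0.07 (edgeR adjusted p = 0.759; -0.20 and 0.555 in the 14 libraries). Hbegf lies on the minus strand of chromosome 18 in 6 exons.

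From TTP-S to TTP-A, the summed markers of mast cells, mucous neck cells and eosinophils rose with Hbegf, and those of surface mucous cells fell. The 3 mast cell genes, none of them at 0, summed to 26.9 to 128 CPM for WT-S, 46.04 to 125 CPM for WT-A, 27.7 to 33.0 CPM for TTP-S and 40.1 to 116 CPM for TTP-A, and 1 of the 3 was called between TTP-A and TTP-S. The 2 mucous neck cell genes, which also mark SPEM, summed to 799 to 1073 CPM for TTP-S and 1230 to 3765 CPM for TTP-A, without overlap. Of the 2 genes 1 was called, higher in TTP-A, and the other was not higher. TTP-S was the group with the lowest mean for Hbegf and for both marker sums. WT-S 1 was highest in WT-S for Hbegf, for the mast cell sum and for the mucous neck sum. TTP-A 1 was highest in TTP-A for Hbegf and the mucous neck sum. WT-A 1 and TTP-S 1, highest in their groups for Hbegf, had the lowest mucous neck sums there (1913 and 799 CPM). The mucous neck sums were 882 to 2993 CPM for WT-S and 1913 to 2393 CPM for WT-A. The 2 eosinophil genes, none at 0, summed to 2.16 to 3.01 CPM for TTP-S and 4.06 to 7.64 CPM for TTP-A, without overlap, and the 1 that could be tested was called higher. All 4 surface mucous genes had lower values in TTP-A than TTP-S, and 1 was called. They summed to 55845 to 60085 CPM for TTP-S and 29828 to 52909 CPM for TTP-A. The part of these cells in the Hbegf result was not tested.

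Areg, which encodes amphiregulin, a ligand of lower affinity that is also made by immune cells, had lower means in TTPΔARE than in WT mice in both conditions. In libraries 1 to 4 it was at 31.9, 26.8, 29.6 and 35.3 CPM for WT-S, 35.2, 28.6, 20.1 and 25.3 CPM for WT-A, 23.6, 16.8, 23.7 and 14.9 CPM for TTP-S, and 22.3, 23.0, 16.9 and 14.8 CPM for TTP-A. TTP-S and WT-S did not overlap, as held for 6.74% of all genes. In A, WT-A 3 fell among the TTP-A libraries. TTP-S lay below WT-S by a log2 of -0.64 (SE 0.19), with an edgeR adjusted p of 0.359 and an exact permutation p of 0.0286, and limma voom gave -0.68 (adjusted p = 0.0446). TTP-A differed from WT-A by -0.51 (SE 0.19, edgeR adjusted p = 0.106), or by -0.73 in the 14 libraries (adjusted p = 0.0675), and voom called it (-0.71, adjusted p = 0.0372).

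Averaged over A and S, Areg differed between genotypes by a log2 of -0.58 (SE 0.13, edgeR adjusted p = 0.0527), short of the threshold in 16 libraries and past it in 14 (-0.69, adjusted p = 0.0203), where 2.26% of all genes were called. Leaving out 1 library moved that adjusted p between 0.0331 and 0.116, under 0.05 without TTP-A 1, WT-A 1, WT-A 3 or WT-S 2 and highest without TTP-S 2. DESeq2 called the same contrast (-0.57, adjusted p = 0.0028), as did voom (-0.69, adjusted p = 0.0070). These methods called 699 and 766 genes in all there. Between A and S, Areg differed by -0.18 in WT (edgeR adjusted p = 0.512; 0.05 and 0.908 in the 14 libraries) and by -0.04 in TTPΔARE mice (adjusted p = 0.964).

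Ereg, which encodes epiregulin, was the most variable of the 9 relative to its level, 3.87 times higher in its highest library than in its lowest. Its levels in libraries 1 to 4 were 7.33, 4.79, 3.21 and 3.94 CPM for WT-S, 3.21, 5.45, 2.38 and 2.65 CPM for WT-A, 5.83, 2.88, 4.59 and 3.25 CPM for TTP-S, and 9.22, 4.73, 7.11 and 5.65 CPM for TTP-A. TTP-A had the highest mean and overlapped every other group. TTP-A was above WT-A by a log2 of 0.96 (SE 0.31), with an edgeR adjusted p of 0.0750. It fell to 0.0259 without WT-A 2 and was 0.0260 by DESeq2, while in the 14 libraries the difference was 0.62 (adjusted p = 0.357). TTP-A differed from TTP-S by 0.69 (edgeR adjusted p = 0.284) and WT-A from WT-S by -0.48 (adjusted p = 0.278). In the 14 libraries the latter was -0.14 (edgeR adjusted p = 0.841), and with GC offsets it was -0.11. The interaction was 1.17 (SE 0.44, edgeR adjusted p = 0.250), and 0.83 in the 14 libraries (adjusted p = 0.458). Some exons of Ereg overlap those of Gm19610.

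**Figure D3:**
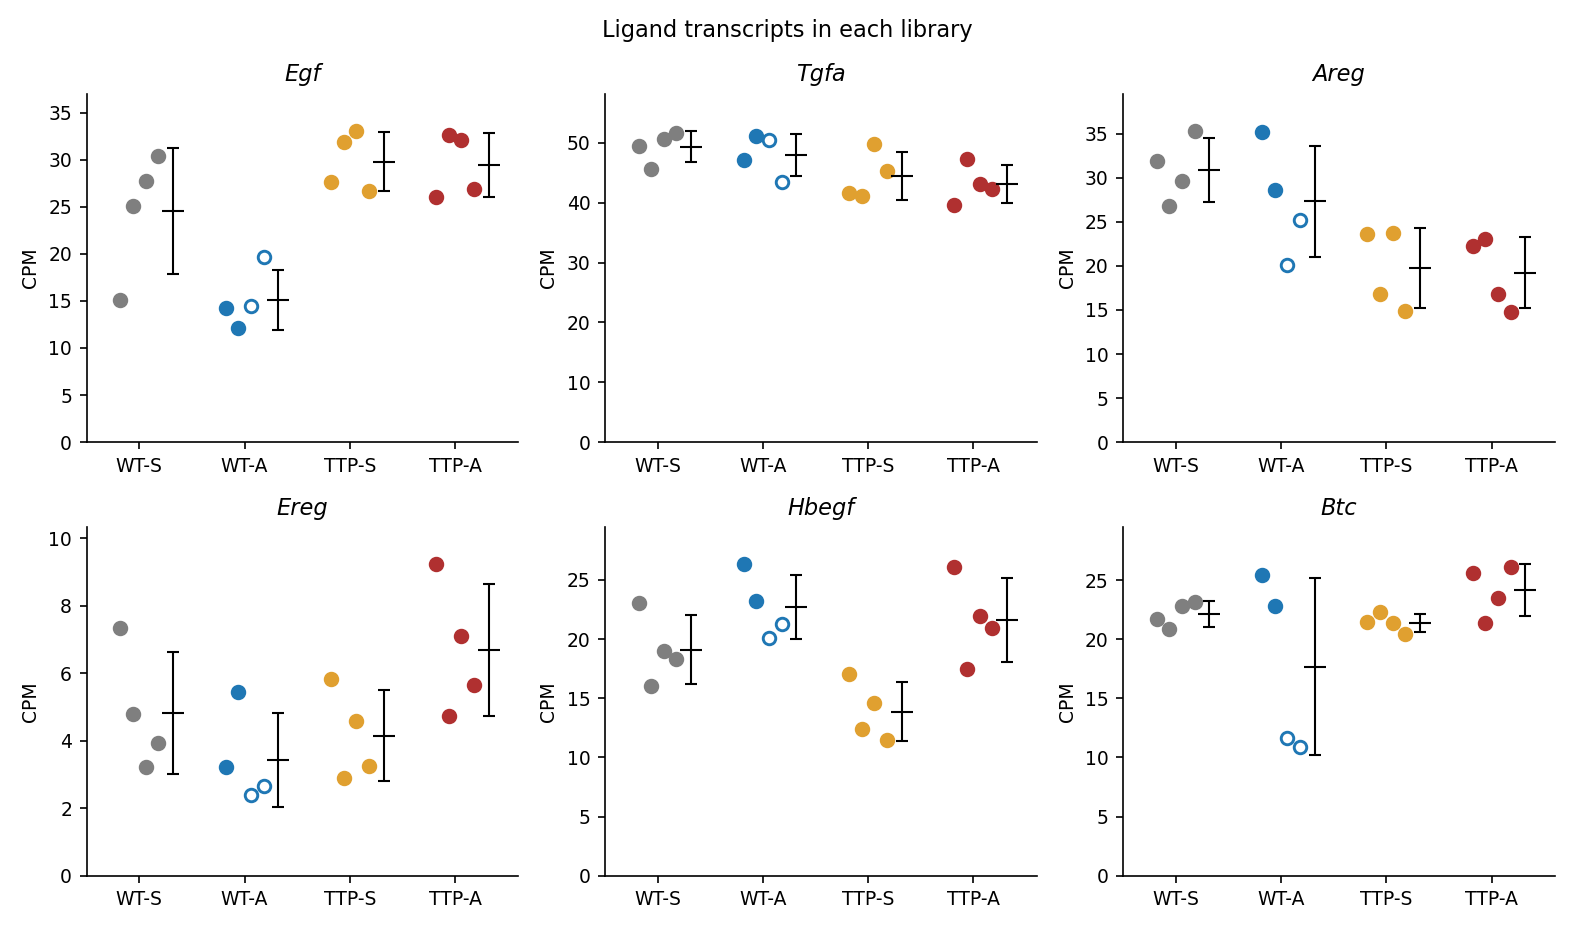
CPM of the 6 ligands in each library by group, with bars for the mean ± SD of 4 libraries and open circles for WT-A 3 and 4. Egf in WT-A lies at 12.1 to 19.6 CPM, below every TTPΔARE library, and Btc splits WT-A into a pair at 25.4 and 22.8 CPM and a pair at 11.6 and 10.9 CPM.

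Btc, which encodes betacellulin, a ligand of the EGF receptor and ERBB4, was even across 14 libraries. It ranged from 20.8 to 23.1 CPM for WT-S, 20.5 to 22.3 CPM for TTP-S and 21.4 to 26.1 CPM for TTP-A. In WT-A it was at 25.4, 22.8, 11.6 and 10.9 CPM in libraries 1 to 4. The low values were those of WT-A 3 and 4, the pair that stands apart by GC content. WT-A differed from WT-S by a log2 of -0.32 in 16 libraries (edgeR adjusted p = 0.265) and by 0.12 in 14 (adjusted p = 0.355), a change of sign. TTP-A differed from WT-A by 0.44 (edgeR adjusted p = 0.172) and by 0.0029 in the 14 libraries (adjusted p = 0.990). Without WT-A 1, when the pair makes up most of its group, Btc was called in both contrasts, with adjusted p of 0.0356 and 0.0235.

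The 9 genes differed in GC content and in their levels in this pair. Btc had the lowest, at 37.7% of the transcript, below the 10th percentile of the genes tested (41.5%), and Erbb2 the highest, at 57.3%. The log2 level in WT-A 3 and 4 less that in WT-A 1 and 2 was -1.09 for Btc, -0.72 for Ereg, -0.49 for Areg and -0.26 for Hbegf. It was 0.13 for Erbb2, 0.10 for Erbb3 and 0.35 for Egf. For all genes the same difference had a median of -0.76 in the tenth of lowest GC content and 0.25 in the tenth of highest. Egf lay above the genes of like GC content, and Areg and Hbegf lay below them.

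**Figure D4:**
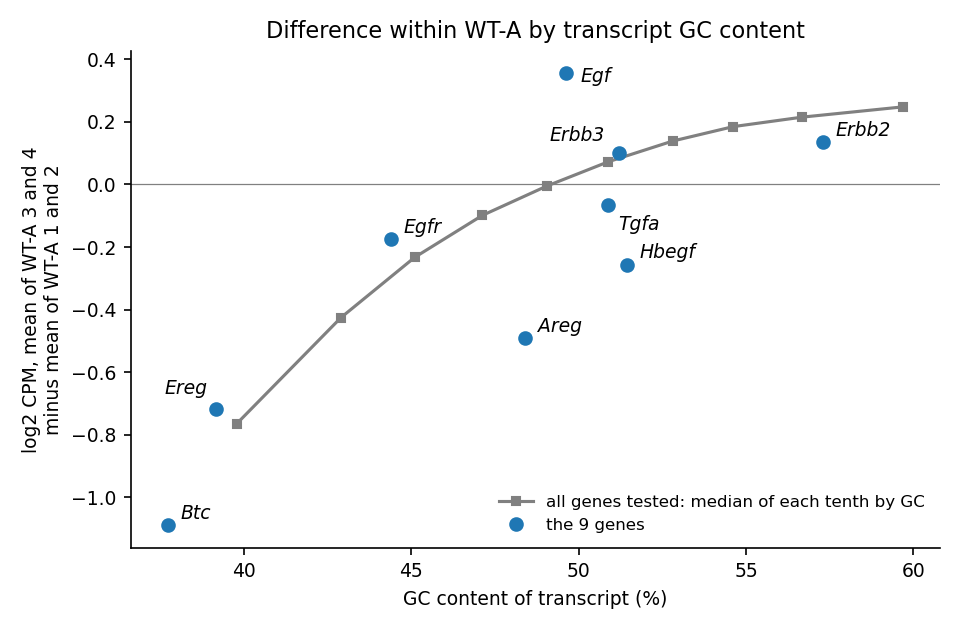
For each of the 9 genes, GC content of the transcript (x axis, percent) against log2 CPM for WT-A 3 and 4 less that in WT-A 1 and 2 (y axis), with the median of all tested genes in 10 equal bins of GC content as a grey line. Btc (-1.09) and Ereg (-0.72) lie near the low-GC end of the line, and Egf (0.35), Areg (-0.49) and Hbegf (-0.26) lie off it.

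Tgfa, which encodes transforming growth factor alpha, had the smallest ratio of highest to lowest library among the 9 (1.30, against 1.34 for Erbb2). It ran from 39.7 to 51.7 CPM over all libraries. Its group means were 49.4 ± 2.62 CPM for WT-S, 48.0 ± 3.49 for WT-A, 44.5 ± 4.04 for TTP-S and 43.1 ± 3.15 for TTP-A. It was lower in TTPΔARE by a log2 of -0.15 in S (edgeR adjusted p = 0.690) and -0.16 in A (adjusted p = 0.190; -0.19 and 0.231 in the 14 libraries). Between A and S it differed by -0.04 in each genotype, and by -0.0089 in WT in the 14 libraries. No edgeR fit called it in any pairwise contrast. Tgfa lies at 86195223 to 86275719 on the plus strand of chromosome 6, and some of its exons overlap those of Gm43917.

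Erbb2, which encodes a receptor with no known ligand of its own that serves as the partner of the others, was highest in WT-A. It was at 102, 92.5, 105 and 104 CPM for WT-S libraries 1 to 4, 111, 108, 120 and 121 CPM for WT-A, 100.1, 103, 109 and 103 CPM for TTP-S, and 95.4, 105, 90.3 and 98.2 CPM for TTP-A. WT-A did not overlap WT-S or TTP-A, and its 2 highest values were those of WT-A 3 and 4. Non-overlap was found for 17.7% of all genes between WT-A and WT-S and for 12.2% between TTP-A and WT-A. WT-A differed from WT-S by a log2 of 0.19 (SE 0.060, edgeR adjusted p = 0.0370, exact permutation p = 0.0286) and TTP-A from WT-A by -0.24 (SE 0.060, adjusted p = 0.0337, exact permutation p = 0.0286).

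Neither call of Erbb2 was held without WT-A 3 and 4. In the 14 libraries the differences were 0.12 (edgeR adjusted p = 0.231) and -0.18 (adjusted p = 0.148). With offsets for GC content they were 0.0073 (edgeR adjusted p = 0.948) and -0.09 (adjusted p = 0.368). Leaving out 1 library ended the first call in 6 of 8 fits (WT-A 3 or 4, or any WT-S library; adjusted p up to 0.116 without WT-S 2). It ended the second in 5 of 8 (TTP-A 1, 3 or 4, or WT-A 3 or 4; up to 0.108 without TTP-A 3). Erbb2 lies at 98412470 to 98437716 on the plus strand of chromosome 11, and some of its exons overlap those of Mien1 on the other strand.

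Erbb3, which encodes a neuregulin receptor with little kinase activity that signals through PI3 kinase, had its lowest mean in TTP-A and its highest in WT-A. It was at 143, 128, 148 and 158 CPM for WT-S libraries 1 to 4, 169, 157, 178 and 171 CPM for WT-A, 138, 149, 173 and 165 CPM for TTP-S, and 136, 142, 117 and 134 CPM for TTP-A. TTP-A lay wholly below WT-A, where 12.2% of all genes did not overlap, and all other pairs of groups overlapped for Erbb3. TTP-A differed from WT-A by a log2 of -0.35 (SE 0.082, edgeR adjusted p = 0.0285, exact permutation p = 0.0286). In the 14 libraries this was -0.30 (edgeR adjusted p = 0.111), and with offsets for GC content -0.27 (adjusted p = 0.0555). The call was lost without TTP-A 3, TTP-A 4 or WT-A 3, with an adjusted p of up to 0.0946 without TTP-A 3. By voom neither receptor was called in this contrast (adjusted p = 0.0610 for Erbb2 and 0.0572 for Erbb3).

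From S to A, Erbb3 differed by a log2 of 0.23 in WT (SE 0.081, edgeR adjusted p = 0.0603) and by -0.24 in TTPΔARE mice (SE 0.082, adjusted p = 0.136). The interaction was -0.47 (SE 0.12, edgeR adjusted p = 0.124), and -0.46 by DESeq2 (adjusted p = 0.0190). That of Erbb2 was -0.29 (SE 0.085, edgeR adjusted p = 0.165). The WT difference of Erbb3 was called without WT-A 2 (edgeR adjusted p = 0.0415) and by DESeq2 (adjusted p = 0.0468), and in the 14 libraries it was 0.18 (edgeR adjusted p = 0.257). The interactions in the 14 libraries were -0.42 for Erbb3 (edgeR adjusted p = 0.183) and -0.22 for Erbb2 (adjusted p = 0.266). Smooth muscle genes were also highest in WT-A: the 4 genes, none at 0, summed to 4858 to 5924 CPM for WT-A, 4087 to 4711 CPM for WT-S, 3582 to 5120 CPM for TTP-S and 3866 to 4711 CPM for TTP-A. Their mean was 4313 CPM for TTP-S and 4386 CPM for TTP-A, where both receptors had lower means in TTP-A. Of the 4 genes 3 were called higher in WT-A than WT-S and 3 lower in TTP-A than WT-A (1 and 0 in the 14 libraries). All 8 squamous forestomach genes had higher values in WT-A than WT-S, with 2 called (3 in the 14 libraries), and summed to 45.7 to 754 CPM for WT-A, 1.27 to 192 CPM for WT-S, 25.3 to 326 CPM for TTP-S and 2.11 to 190 CPM for TTP-A. Of 4 macrophage genes, 2 were called higher in WT-A than WT-S (1 in the 14 libraries). The part of these tissues and cells in the receptor results was not tested.

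Egfr, which encodes the receptor that binds all 6 ligands, was called in no contrast. It was at 46.5 ± 4.27 CPM for WT-S, 46.1 ± 3.64 for WT-A, 52.8 ± 3.86 for TTP-S and 48.0 ± 6.58 for TTP-A. The TTP-A libraries were at 45.1, 57.8, 44.2 and 44.8 CPM. One library, TTP-A 2, was high in that group and the other 3 lay close together. TTP-S differed from WT-S by a log2 of 0.18 (SE 0.093, edgeR adjusted p = 0.696), and TTP-A from TTP-S by -0.14 (SE 0.093, adjusted p = 0.545). Leaving out 1 library moved the latter to between -0.24 and -0.086. WT-A differed from WT-S by -0.0094, and by 0.075 in the 14 libraries. Egfr lies at 16752203 to 16918158 on the plus strand of chromosome 11, and Erbb3 at 128567523 to 128589652 on the minus strand of chromosome 10.

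**Figure D5:**
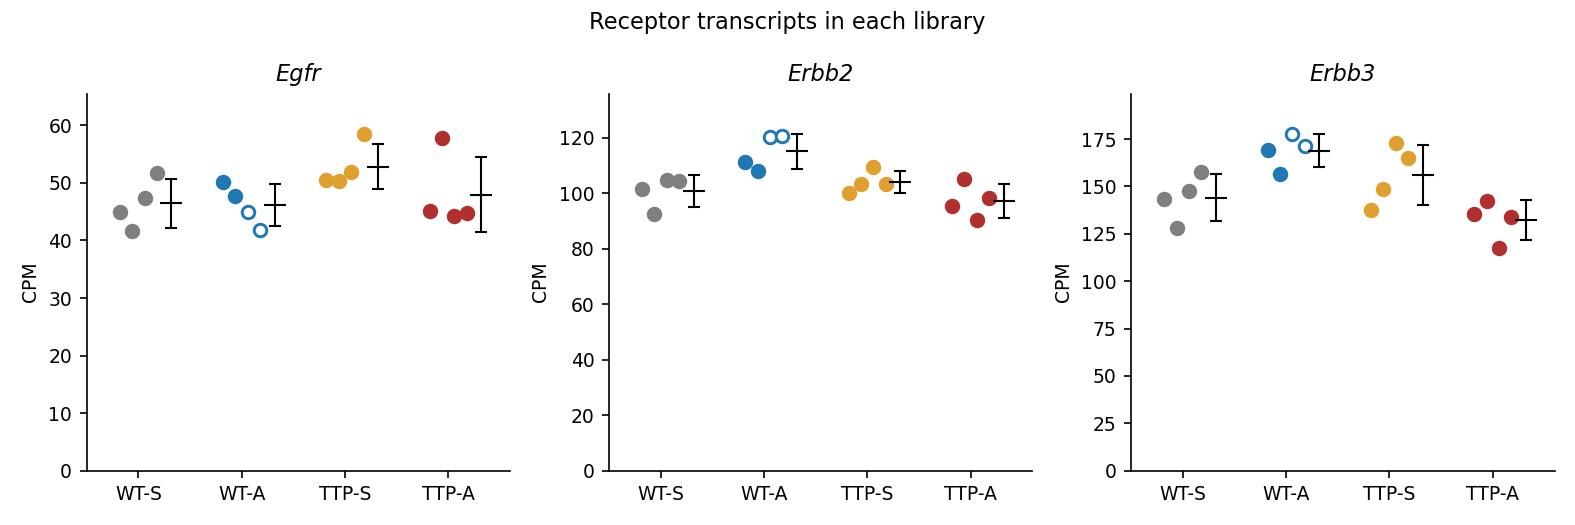
CPM of the 3 receptors in each library by group, with bars for the mean ± SD of 4 libraries and open circles for WT-A 3 and 4. Erbb2 for WT-A (108 to 121 CPM) lies above WT-S and TTP-A, Erbb3 for TTP-A (117 to 142 CPM) lies below WT-A, and Egfr shows 1 high library in TTP-A (57.8 CPM).

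The genes that hold TATTTAT were set beside those that do not in both comparisons of genotype. Between TTP-S and WT-S, of the 6 that hold it, Areg (-0.64), Hbegf (-0.46), Ereg (-0.21) and Tgfa (-0.15) had negative log2 differences, and Egfr (0.18) and Erbb3 (0.11) positive ones. Of the 3 that lack it, Egf stood at 0.28, Erbb2 at 0.05 and Btc at -0.05. None of these differences was called by edgeR. The comparison of TTP-A with WT-A gave other signs for some of the genes. Of the 6 that hold TATTTAT, Areg (-0.51), Erbb3 (-0.35), Tgfa (-0.16) and Hbegf (-0.07) had negative log2 differences there, and Ereg (0.96) and Egfr (0.06) positive ones. Of the 3 that lack it, Egf stood at 0.97, Btc at 0.44 and Erbb2 at -0.24. Egf, Erbb2 and Erbb3 were called by edgeR in 16 libraries (adjusted p = 0.0137, 0.0337 and 0.0285). Without WT-A 3 and 4, Ereg stood at 0.62, Areg at -0.73, Erbb3 at -0.30, Hbegf at -0.20, Tgfa at -0.19 and Egfr at -0.03, beside 1.16 for Egf, 0.0029 for Btc and -0.18 for Erbb2, and Egf alone was called. Ereg, with the most copies, had a negative difference between TTP-S and WT-S and a positive one between TTP-A and WT-A, and neither was called in the 16 or the 14 libraries.

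Genes around the family were read from fixed lists. Of 6 other members of the EGF family, Epgn, Nrg3 and Erbb4 had at most 9 counts in any library and were not tested. Of the other 3, only Nrg1 was called in a pairwise contrast. Nrg1 encodes neuregulin 1, a ligand of ERBB3, and was at 5.42 ± 1.25 CPM for WT-S, 4.77 ± 1.02 for WT-A, 5.12 ± 0.880 for TTP-S and 8.94 ± 1.98 for TTP-A. All 4 TTP-A libraries (10.1, 7.44, 11.1 and 7.08 CPM) lay above the other 12, the highest of which was WT-S 1 at 6.94 CPM. Of all genes, 13.7% did not overlap between TTP-A and TTP-S, and 12.2% between TTP-A and WT-A. Nrg1 was higher in TTP-A than TTP-S by a log2 of 0.80 (SE 0.20, edgeR adjusted p = 0.0417) and than in WT-A by 0.91 (SE 0.20, adjusted p = 0.0232), and both were called in the 14 libraries (adjusted p = 0.0206 and 0.0238). With GC offsets neither was (0.82, edgeR adjusted p = 0.0532, and 0.67, adjusted p = 0.0919), and a fit of TTP-A and WT-A alone lost the second (adjusted p = 0.0974). Without 1 library the first call was held in 1 of 8 fits (without TTP-A 2; adjusted p up to 0.155) and the second was lost without TTP-A 1, TTP-A 3 or WT-A 3 (up to 0.0798).

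Of 5 genes of ligand shedding, Rhbdf2, which encodes a regulator of the sheddase ADAM17, was called higher in WT-A than WT-S (log2 0.36, SE 0.094, edgeR adjusted p = 0.0181). Timp3, which encodes an inhibitor of ADAM17, was called lower in WT-A than WT-S (-0.33, edgeR adjusted p = 0.0135) and higher in TTP-A than WT-A (0.40, adjusted p = 0.0178). None of these 3 calls held in the 14 libraries (log2 0.22, -0.18 and 0.25, edgeR adjusted p = 0.167, 0.103 and 0.0701). With GC offsets the Rhbdf2 difference was 0.16 (edgeR adjusted p = 0.159). The Rhbdf2 call was also lost without WT-A 3 (as was the second Timp3 call) or WT-S 2 (as was the first), with an edgeR adjusted p of at most 0.0630. In the averaged contrasts Timp3 was called higher in TTPΔARE than WT (0.30, edgeR adjusted p = 0.0250; 0.0215 in the 14 libraries) and lower in A than S, and Rhbdf2 higher in A than S (adjusted p = 0.0115; 0.0395 in the 14 libraries). Adam10, chosen after its values were seen, was called in the 14 libraries alone, higher in WT-A than WT-S (0.41, edgeR adjusted p = 0.0093). Of 19 genes of signal transduction, 5 were called between WT-A and WT-S, 2 of them higher in WT-A, where 18.8% of all genes were called. They included Sos2 (-0.43, edgeR adjusted p = 0.0042) and Pik3r1 (-0.32, adjusted p = 0.0256). Of these 5 only Sos2, a RAS activator, was also called in the 14 libraries (-0.31, adjusted p = 0.0305). Pik3r1, the regulatory subunit of PI3 kinase, was called lower in TTP-A than TTP-S (-0.35, edgeR adjusted p = 0.0490; 0.0089 in the 14 libraries). Leaving out 1 library ended that call in 6 of 8 fits (TTP-A 1, 3 or 4, or TTP-S 2, 3 or 4; up to 0.168). It was also lost with DESeq2 size factors (adjusted p = 0.0502), without a filter on low counts (0.0525) and with the replicate block (0.0616). Sos2 was called higher in TTP-A than WT-A (0.30, edgeR adjusted p = 0.0461; 0.246 in the 14 libraries), a call held only without WT-A 1 or WT-A 2. The WT call of Pik3r1 was lost in 4 of 8 such fits (WT-A 3 or 4, WT-S 2 or 4; up to 0.0787) and that of Sos2 in none.

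Of 14 inhibitors of the pathway, Spry4, a feedback inhibitor of RAS signalling, was called higher in TTP-A than TTP-S. It was at 12.4, 11.9, 12.5 and 10.51 CPM for TTP-A and at 9.03, 6.01, 8.40 and 6.39 CPM for TTP-S, without overlap (log2 0.66, SE 0.12, edgeR adjusted p = 0.0129; 0.0072 in the 14 libraries). Of all genes, 13.7% did not overlap in that contrast. The call of Spry4 was lost without TTP-A 1 or TTP-S 4, with an edgeR adjusted p of at most 0.0566. Dusp6, which encodes a feedback phosphatase of the pathway, was called lower in WT-A than WT-S (-0.42, edgeR adjusted p = 0.0195; -0.50 and 0.0076 in the 14 libraries), a call lost when WT-S 3, WT-S 4 or WT-A 3 was left out (up to 0.0669). Of 10 transcriptional targets, only Ier3, an immediate early gene, was called in a pairwise contrast, lower in TTP-A than WT-A (-0.38, SE 0.090, edgeR adjusted p = 0.0297; 0.0627 in the 14 libraries). Without TTP-A 2, 3 or 4 or WT-A 3 it was not called (edgeR adjusted p up to 0.0912). It was at 20.3 ± 0.531 CPM for WT-A and 15.6 ± 1.37 CPM for TTP-A. In 16 libraries no gene of the 5 lists was called between TTP-S and WT-S or in the interaction. In the 14 libraries Ier3 was called lower in TTP-S than WT-S (-0.50, edgeR adjusted p = 0.0389). Of the 10 targets, 1 was called higher in TTP-A than TTP-S in those libraries.

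The genes most like each member were found by Pearson correlation of log2 CPM over the 16 libraries among 10928 genes with a mean of at least 5 CPM. These values describe the libraries, which share groups and the GC split, and carry no p. For Egf the closest were Dpyd (r = 0.92) and Cep68 (0.92), and for Hbegf Anxa8 (0.92) and Nuak1 (0.92), which stood at 0.95 each in the 14 libraries. Erbb2 and Erbb3 were among the 2 closest genes of each other (0.92 in 16 and in 14 libraries), next to Klc4 for Erbb2 (0.92) and Dhrs3 for Erbb3 (0.90). Areg was closest to Selenok (0.85) and Ntn4 (0.85), Ereg to Fgf1 (0.83) and Csgalnact1 (0.83), Egfr to Rbm20 (0.83) and Pla2g12a (0.82), and Tgfa to Dnajb13 (0.79) and Phf13 (0.78). Btc was closest to Atrx (0.98) and Snapc3 (0.98), and without WT-A 3 and 4 these fell to 0.75 and 0.78.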

How the data were processed

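The deposited table gives raw counts per gene symbol in 16 libraries, prepared from TRIzol-extracted RNA and Illumina TruSeq libraries per the labels' protocols. The submitters' processing notes list STAR 2.7.0f, featureCounts, Subread 1.6.4, DESeq2 and mm10. The annotation and the strand setting are not given in the sources used here. Raw counts went into edgeR 4.0.16 (R 4.3.3) with filterByExpr, TMM scaling and its quasi-likelihood F test on group means over all 16 libraries, with Benjamini-Hochberg adjustment over 15385 genes. SE is the log2 difference over the root of the test statistic. CPM is relative to the TMM-scaled library, and log2 CPM has a prior count of 2. Exact two-sided permutation tests used log2 CPM and 70 permutations. CPM per kb, GC content and UTRs used GENCODE M21. The procedure was tested on simulated data.

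Alternatives were DESeq2 size factors, other filters on low counts, the Wald test of DESeq2 1.42.0, limma 3.58.1 voom with sample weights, a fit of 2 groups alone, a block on replicate number, 14 libraries, GC offsets (loess), and leaving out each library. The 2 averaged contrasts and the newer edgeR fit were added after the data were seen. The members, lists and rules were chosen with earlier results of these data known. Named were all 9 genes, Zfp36, the called genes of the 5 lists (at most 3 per list and contrast, largest first), and the 2 most similar genes of each member, leaving out unnamed gene models. A gene that this rule names is not reported here.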

Additional observations from a re-analysis of the deposited data

Results flagged for a closer look

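Among 36 sets of 4 libraries (9 genes in 4 groups), 1 held a library far from the others. Egfr in TTP-A 2 was at 57.83 CPM, while the other TTP-A libraries lay at 44.2 to 45.1 CPM. The gap to the nearest library was 0.936 of the range of the group, above Dixon's critical value for 4 samples. Chance alone gives such a library in about 1 of 20 sets.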

How the results depend on the processing

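The number of the 9 genes called moved with the processing in every contrast. Between WT-A and WT-S it was 2, and it was 1 without a filter on low counts, by voom, with the replicate number as a block, in 14 libraries and with GC offsets, and 0 in a fit of only those 2 groups. Between TTP-A and TTP-S it was 1, and 2 by voom (Hbegf and Erbb3), which called 2346 genes in all against 446 in the main fit. Between TTP-S and WT-S it was 0, and 1 by voom. Between TTP-A and WT-A it was 3, and 1 in 14 libraries and with GC offsets, and 0 in a fit of only those 2 groups. There voom called Egf and Areg but neither receptor, and the block lost Erbb2 (edgeR adjusted p = 0.0504). DESeq2 added Erbb3 between WT-A and WT-S and Ereg between TTP-A and WT-A. In the interaction it was 0, and 1 by DESeq2 and by voom. For the genotypes averaged over A and S it was 1, 2 by DESeq2, with the block, in 14 libraries and with GC offsets, and 3 by voom. The genes called in all there were 133 in the main fit, 699 by DESeq2, 352 in 14 libraries, 303 with GC offsets and 766 by voom. For A against S averaged over genotypes it was 1, and 2 by DESeq2, by voom, in 14 libraries and with GC offsets. Leaving out 1 library gave 0 to 3, 0 to 1, 0 to 0, 0 to 4, 0 to 0, 0 to 2 and 1 to 2 in these 7 contrasts, in this order. The count over all genes moved with it. Between TTP-A and TTP-S it went from 446 to 60 without TTP-A 1. For the averaged genotypes it went from 133 to 28 without TTP-S 2 and to 488 without WT-A 1.

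Signs that changed were all of uncalled differences. Between WT-A and WT-S, Ereg was 0.14 and Egfr 0.017 by voom. In 14 libraries Areg was 0.049, Btc 0.12 and Egfr 0.075, and with GC offsets Btc was 0.083 and Egfr 0.13. Leaving out 1 library gave -0.057 to 0.050 for Egfr and -0.073 to 0.0056 for Tgfa. Between TTP-A and TTP-S it gave -0.072 to 0.036 for Egf, -0.15 to 0.068 for Areg and -0.091 to 0.015 for Tgfa, and between TTP-S and WT-S -0.43 to 0.056 for Ereg. Between TTP-A and WT-A, Egfr was -0.042 by voom, -0.029 in 14 libraries and -0.065 with GC offsets, and Hbegf was 0.0078 with GC offsets. Leaving out 1 library gave -0.18 to 0.013 for Hbegf and -0.050 to 0.098 for Egfr. In the interaction Tgfa was 7.3e-05 with DESeq2 size factors and 0.070 with GC offsets, and -0.055 to 0.051 without 1 library, and Areg was -0.031 by voom and -0.088 in 14 libraries. The cause was not tested.

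Deviations of same-numbered libraries from their group means correlated at -0.42 to 0.33 across genes. This does not tell whether the numbers mark a shared litter, batch or day. Of 1268 recomputed values, 1076 kept their direction and their side of the threshold. Over all genes, the count called between WT-A and WT-S ran from 675 (only 2 groups) to 4977 (without WT-A 1), and between TTP-A and WT-A from 1 (only 2 groups) to 3202 (without WT-A 1). Between TTP-A and TTP-S it ran from 60 (without TTP-A 1) to 2346 (voom). Between TTP-S and WT-S it ran from 1 (without 1 library) to 175 (voom), and in the interaction from 2 (without 1 library) to 268 (DESeq2). In the averaged contrasts it ran from 28 to 766 between genotypes and from 1939 to 4510 between A and S. With 4 libraries per group, no exact permutation p can be under 0.0286.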
